A study of Mus musculus with 10 samples.

Results

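The 40 genes described here encode the machinery with which cells copy their DNA and divide. They were chosen by role, but with earlier results of these data known, so shares set beside those of all genes describe the list and test nothing. The genes are kept apart as 14 genes of DNA replication (Mcm2 to Mcm7, Pcna, Rrm1, Rrm2, Tyms, Cdc6, Ccne1, Ccne2 and Uhrf1) and 26 genes of mitosis and cytokinesis. Of the latter, Mki67, Top2a and Ccna2 act from S phase into mitosis. Of the 40 genes, 39 were measured among the 19938 genes of the array, that is all 14 replication genes and 25 of the 26 mitosis genes. Ccnb1, cyclin B1, was not analysed here because no probe set was named for it alone. RNA of adult C56BL6N mice, given as 8 weeks old (strain as spelled in the labels), was hybridised to 10 Affymetrix Mouse Gene 1.0 ST arrays. The tibialis anterior (TA) comparison had 2 arrays of muscle electroporated with 10 µg of a vector that makes a short hairpin RNA against linc-MYH (shlinc-MYH) and 2 arrays of muscle given control vector. Per the methods, the control hairpin targeted LacZ and was put into the opposite TA, and GFP-positive fibers were dissected 2 weeks later. The methods name both 8 and 10 weeks as the age at electroporation, so age at collection may differ between TA and gastrocnemius. The gastrocnemius comparison had 3 arrays of conditional knockout (KO) muscle and 3 arrays of wild type control muscle. KO animals are flox/flox for the deleted gene and carry the HSA-CRE transgene, whose human skeletal actin promoter drives Cre in muscle fibers, so that other cells of the muscle were not the target of the deletion. Per the methods, electroporated muscles of one condition belonged to different mice, and no source used here says whether gastrocnemius arrays of one group came from separate animals, so p-values there measure the spread between these samples. linc-MYH itself was not analysed here.

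Replication and division genes are switched on in turn as a cell moves through its cycle. Replication genes act in S phase: the Mcm2 to Mcm7 ring unwinds DNA, Pcna is the clamp that holds polymerases on it, and Rrm1, Rrm2 and Tyms make its building blocks. Mitosis genes build the spindle, attach chromosomes at kinetochores, hold division until all are attached, and pinch the daughter cells apart. Nuclei of mature muscle fibers have left the cycle for good, whereas satellite cells, immune cells, fibroblasts and endothelial cells of the same muscle can divide. Pcna and Rrm1 also serve DNA repair, outside S phase.

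The deposited values are log2 signals, in which a difference of 1 is a doubling of signal. Array medians over all probe sets lay between 5.09 and 5.14 in TA and between 6.60 and 6.67 in gastrocnemius, so levels were read within a tissue only. Genes of skeletal muscle such as Acta1 and Ckm lay near the top of the scale in both tissues, with Acta1 at 14.01, 14.04 and 14.02 on the KO arrays and at 14.03, 14.03 and 14.04 on the gastrocnemius control arrays, and at 12.71 and 12.66 on the shlinc-MYH arrays and 12.63 and 12.70 on the control vector arrays.

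Many of the division genes were dim. In control TA their mean signal ran between 3.66 for Ect2 and 8.74 for Pcna, and in control gastrocnemius between 4.64 for Nusap1 and 9.76 for Pcna. As a guide to where silent genes lie, the 1228 olfactory, vomeronasal and taste receptor genes on the array had a 95th percentile of 4.86 in control TA and of 6.0 in control gastrocnemius. In control gastrocnemius 22 of the 39 genes lay above that mark, 12 of the 14 replication genes and 10 of the 25 mitosis genes. In control TA 16 of the 39 did, 9 of the 14 replication genes and 7 of the 25 mitosis genes (28%). Of all genes, 67.8% lay above the mark in gastrocnemius and 61.0% in TA. Replication genes thus sat near the middle of the array, with a median percentile of 45.4 in control gastrocnemius and 50.2 in control TA, and mitosis genes lower, at 26.3 and 30.7. Differences of genes below the mark are differences between dim signals.

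**Figure D1:**
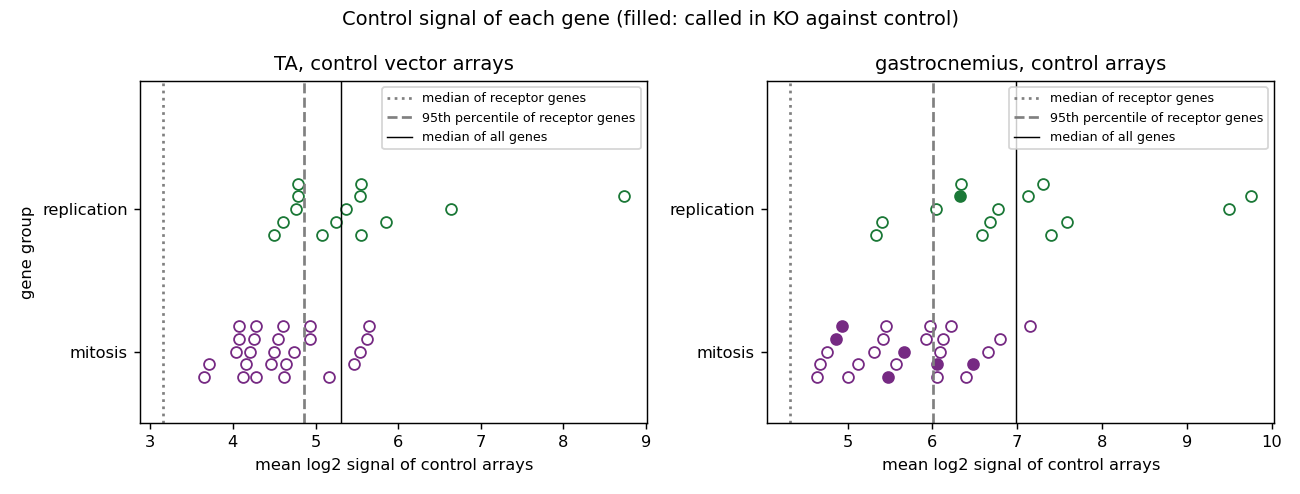
Mean log2 signal of each replication and mitosis gene on the control arrays of gastrocnemius and TA (x axis). Lines mark the median and the 95th percentile of receptor genes and the median of all genes. Filled points, in the gastrocnemius panel only, are the 7 genes that rose in KO muscle. All points of the TA panel are open, and height within a row has no meaning. Of the mitosis genes, 10 of 25 lie right of the receptor mark in gastrocnemius and 7 of 25 in TA.

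In gastrocnemius, 7 of the 39 genes rose in KO muscle and none fell (limma, adjusted p under 0.05 over all genes). They were 6 mitosis genes, Prc1, Top2a, Mki67, Ect2, Ccna2 and Bub1, and 1 replication gene, Rrm2. The share, 17.9% of the genes measured, compares with 1.74% of all genes called in either direction, 0.908% higher and 0.833% lower. It was 24% of the mitosis genes and 7.14% of the replication genes. At an unadjusted p under 0.05, 23 of the 39 genes were higher and 2 lower, where 14.9% of all genes passed in either direction. The 7 rises lay between 1.37-fold for Ect2 and 1.79-fold for Rrm2. In muscle tissue, more cells of a dividing type and more RNA per cell cannot be told apart. All 7 genes lay below the median gene of control gastrocnemius, so that a filter at the median gene removed them all, and Mki67, Ccna2 and Rrm2 lay above the receptor mark while Prc1, Top2a, Ect2 and Bub1 lay below it. Without KO replicate 2 none of the 7 passed, although each stayed above 0, and without KO replicate 1, control replicate 1 or control replicate 2 only Prc1 and Top2a passed. Taking the mean of the gene's probe sets left Top2a out (log2 difference 0.25, adjusted p = 0.164). The methods' t-test called 0 of the 7 after adjustment (adjusted p between 0.113 and 0.264), and the replicate block and quantile normalization each left out Rrm2, Bub1 and Ect2.

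Prc1 bundles the microtubules of the central spindle between the separating chromosomes. Its log2 signal was 5.45, 5.56 and 5.48 on the KO arrays, against 4.79, 4.86 and 4.92 on the control arrays. Every KO array was above every control array, with a gap several times wider than the spread inside either group. The log2 difference was 0.64 (SE 0.069, 95% interval 0.48 to 0.79, limma adjusted p = 0.00715), a 1.55-fold higher signal, starting from percentile 14.3 of the control signal of all genes. Ect2, the exchange factor that switches on RhoA to form the contractile ring, read 6.05, 6.23 and 6.05 on the KO arrays, against 5.58, 5.70 and 5.70 on the control arrays. The groups did not overlap here either, and the log2 difference was 0.45 (SE 0.078, limma adjusted p = 0.0357). Kif20a, a kinesin of the central spindle, stood at 6.35, 6.33 and 6.33 on the KO arrays, against 5.94, 6.10 and 6.11 on the control arrays, again without overlap. Its difference of 0.29 (SE 0.071) did not pass (adjusted p = 0.102).

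Mki67 encodes Ki-67, the antigen used to count cells in cycle, which coats chromosomes in mitosis. Its log2 signal was 7.13, 7.16 and 7.35 on the KO arrays, against 6.30, 6.46 and 6.68 on the control arrays. The lowest KO array stood above the highest control array, and the log2 difference was 0.74 (SE 0.11, 95% interval 0.48 to 0.99, limma adjusted p = 0.0206). Top2a, the topoisomerase that untangles sister DNA, was 6.17, 6.12 and 6.04 on the KO arrays, against 5.48, 5.42 and 5.53 on the control arrays. That is a log2 difference of 0.63 (SE 0.069, limma adjusted p = 0.00715) with narrow groups that did not overlap. A dimmer probe set also named for Top2a, made to another transcript record, read between 3.43 and 3.82 in gastrocnemius and differed by -0.13, so the rise was seen with the brighter probe set only.

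Among the cyclins and kinases that drive entry into mitosis, Ccna2 (cyclin A2, which partners Cdk2 in S phase and Cdk1 later) had 6.77, 6.69 and 7.06 on the KO arrays, against 5.85, 5.96 and 6.34 on the control arrays. Replicate 3 was the highest array of each group, and the groups did not overlap. The log2 difference was 0.79 (SE 0.14, 95% interval 0.46 to 1.13, limma adjusted p = 0.0423). Cdk1, the kinase that triggers mitosis, was 6.75, 6.60 and 6.82 on the KO arrays, against 6.12, 6.12 and 6.42 on the control arrays. Its difference of 0.50 (SE 0.10) had groups that did not overlap but missed the threshold (adjusted p = 0.06). Ccnb2, cyclin B2, differed by 0.37 ± 0.096, adjusted p = 0.118, and Plk1, a kinase of mitotic entry, by 0.39 ± 0.15, adjusted p = 0.26 (log2 ± SE). Neither passed, and the Plk1 arrays of the groups overlapped.

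Bub1, a kinase of the spindle checkpoint that halts division while chromosomes are unattached, was 5.76, 5.73 and 5.32 on the KO arrays, against 4.91, 4.87 and 5.03 on the control arrays. KO replicate 3 was well below the other KO arrays but still above every control array. The log2 difference was 0.66 (SE 0.12, limma adjusted p = 0.0423). Its partner Bub1b differed by 0.28 ± 0.072, adjusted p = 0.109, and the checkpoint kinase Ttk by 0.15 ± 0.097, adjusted p = 0.559. Cdc20, which activates the anaphase-promoting complex when the checkpoint is met, differed by -0.012 ± 0.075.

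The other mitosis genes did not pass the test. Of the Aurora kinases, Aurkb, which corrects kinetochore attachments, was at 0.39 ± 0.12 with groups that did not overlap, while Aurka, which acts at spindle poles, was the 1 mitosis gene whose KO arrays all lay below the controls, at -0.18 ± 0.079, adjusted p = 0.34. Birc5, survivin, works in the same complex as Aurkb and differed by 0.071 ± 0.070. The spindle motors and spindle assembly factors Kif11, Kif23, Tpx2 and Nusap1 differed by 0.39, 0.42, 0.25 and 0.28, all without overlap between the groups. At the kinetochore, Nuf2 and Cenpe differed by 0.20 and 0.14 without overlap, while Cenpf at 0.25 and Ndc80 at -0.016 overlapped. Anln, which scaffolds the contractile ring, differed by 0.29 ± 0.15, adjusted p = 0.447.

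**Figure D2:**
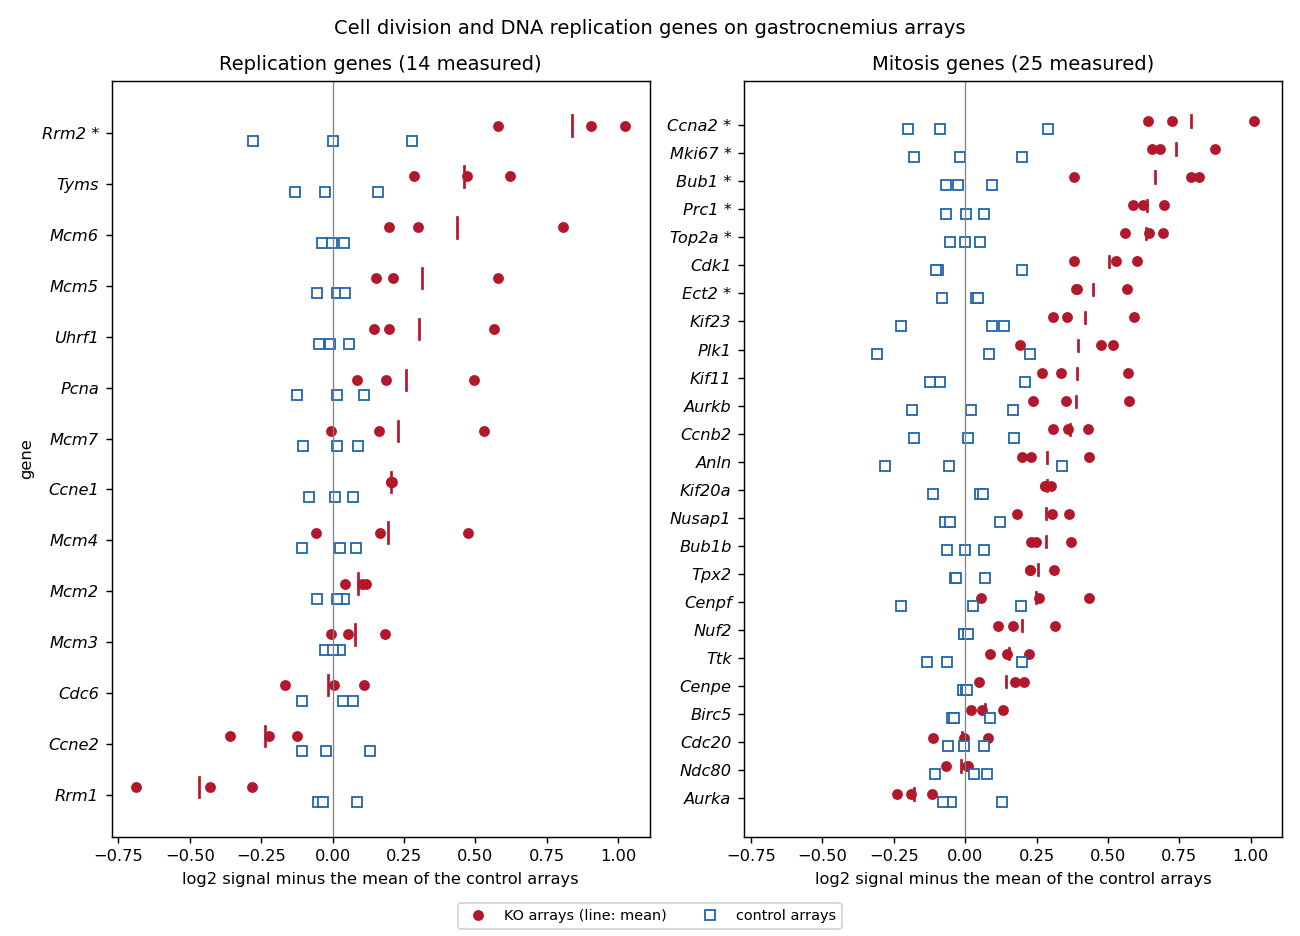
Log2 signal of each gene on each gastrocnemius array minus the mean of the control arrays (x axis), replication genes left and mitosis genes right. Each filled circle is 1 of the 3 KO arrays (short line: mean), each open square 1 of the 3 control arrays, and genes that passed the test are marked with an asterisk; of the mitosis genes 17 lie wholly right of their controls and 1, Aurka, wholly left.

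Counted over the whole list, the KO arrays were all above the control arrays for 24 genes (61.5%, against 11.0% of all genes) and all below them for 3, Rrm1, Ccne2 and Aurka (against 9.85% of all genes). Mitosis genes made up 17 of the 24 and replication genes 7. The difference was above 0 for 33 of the 39 genes (84.6%, against 52.8% of all genes). The median log2 difference was 0.29 for mitosis genes and 0.22 for replication genes, beside 0.0080 for all genes.

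Of the replication genes, those that make DNA precursors lay furthest from 0, in both directions. Rrm2, the small subunit of ribonucleotide reductase and the one whose supply follows S phase, read 7.23, 6.90 and 7.35 on the KO arrays, against 6.05, 6.32 and 6.60 on the control arrays. The arrays varied within both groups, yet the lowest KO array was above the highest control array, and the log2 difference was 0.84 (SE 0.16, 95% interval 0.47 to 1.20, limma adjusted p = 0.0479). Rrm1, the large subunit of the same enzyme, had lower values in KO muscle. It read 9.21, 9.06 and 8.80 on the KO arrays, against 9.58, 9.44 and 9.46 on the control arrays, a difference of -0.47 (SE 0.11) that did not pass (adjusted p = 0.0827) although the groups did not overlap. Rrm1 was also among the brighter genes, at percentile 87 of control gastrocnemius, where Rrm2 was at 38. Tyms, which makes thymidylate, stood at 6.67, 6.33 and 6.52 on the KO arrays, against 6.20, 5.91 and 6.02 on the control arrays. Its difference of 0.46 (SE 0.11) likewise had no overlap and missed the threshold (adjusted p = 0.0895).

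The 6 subunits of the Mcm helicase all had values above 0 in gastrocnemius and none passed. Mcm6 was the furthest, at 7.59, 7.08 and 6.97 on the KO arrays, against 6.82, 6.74 and 6.78 on the control arrays. KO replicate 1 lay far above the other KO arrays, the control arrays were close together, and the difference was 0.43 (SE 0.15, adjusted p = 0.218). Mcm5 and Mcm2 had no overlap, with differences of 0.31 and 0.088, and Mcm3, Mcm4 and Mcm7, at 0.077, 0.19 and 0.23, overlapped with the controls. Pcna, the brightest of the 39 genes in both tissues, differed by 0.26 ± 0.12 with overlap. Its arrays gave near-equal values at both probe sets named for it, which carry the same accessions and cannot be told apart.

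For the cyclin that starts S phase with Cdk2, Ccne1 was 6.79, 6.79 and 6.79 on the KO arrays, against 6.59, 6.50 and 6.66 on the control arrays. The KO arrays were almost equal and lay above all controls, but the difference was small, 0.20 (SE 0.067, adjusted p = 0.2). Ccne2, which has the same role, lay on the other side at -0.24 ± 0.091, adjusted p = 0.276, with no overlap. Cdc6, which loads the Mcm ring, differed by -0.016 ± 0.091 and Uhrf1, which keeps methylation on copied DNA, by 0.30 ± 0.11.

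The array that was highest was often KO replicate 1. It was the highest KO array for 10 of the 14 replication genes, 5 of the 6 Mcm subunits included, and for 14 of the 25 mitosis genes. With it left out, the replication median was 0.11 in place of 0.22, and the mitosis median 0.29.

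Promoters of division genes are known for shared elements, and the promoters of the genes that rose are shown to let a reader see them. Windows of 300 bases, from 250 before to 50 after the annotated start (RefSeq, GRCm38.p6), were found for 34 of the 40 genes, including 6 of the 7 that rose, and Ccna2 was the one without. The letters searched on both strands were TTTGAA and TTTAAA, the core of the cell cycle genes homology region (CHR) bound by DREAM and MuvB complexes, CCAAT, bound by NF-Y, and TTTGGCGC, TTTCGCGC, TTTCCCGC and TTTGCCGC, forms of the E2F site; E2F forms can overlap on opposite strands, and in Mcm7 an E2F form shares letters with a CCAAT box. CHR letters were present in 19 of 22 mitosis windows (86.4%) and in 4 of 12 replication windows (33.3%), beside 27.8% of all 27025 promoters. E2F letters were present in 1 of 22 mitosis windows (4.55%), that of Cdk1, and in 5 of 12 replication windows (41.7%), beside 2.32% of all promoters. CCAAT was present in 17 of 22 mitosis windows (77.3%) and in 9 of 12 replication windows (75.0%), beside 37.9% of all promoters. Of the 6 risen genes with a window, 5 had CHR letters, Bub1 being without, 6 had CCAAT and 0 had an E2F form. The 16 mitosis windows of measured genes that did not pass held CHR letters in 14 and CCAAT in 11. A match of letters is a description of the sequence and does not show that a factor binds there.

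The stretches below cover 150 bases before to 30 after the start, 180 bases in all, with the matched letters in capitals. They are those of Rrm2 (chr12:24708104-24708283, + strand), Mki67 (chr7:135716350-135716529, - strand), Top2a (chr11:99024160-99024339, - strand), Bub1 (chr2:127831830-127832009, - strand), Prc1 (chr7:80294301-80294480, + strand) and Ect2 (chr3:27153849-27154028, - strand). Mcm6 (chr1:128359676-128359855, - strand) follows as a replication gene that did not pass and whose letters include the E2F form, and Cdc20 (chr4:118437314-118437493, - strand) as a mitosis gene with CHR and CCAAT letters and a difference near 0.
Rrm2: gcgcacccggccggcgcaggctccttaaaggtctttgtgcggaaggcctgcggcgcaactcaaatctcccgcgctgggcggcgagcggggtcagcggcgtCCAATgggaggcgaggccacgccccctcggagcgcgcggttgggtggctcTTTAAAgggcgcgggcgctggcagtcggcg
Mki67: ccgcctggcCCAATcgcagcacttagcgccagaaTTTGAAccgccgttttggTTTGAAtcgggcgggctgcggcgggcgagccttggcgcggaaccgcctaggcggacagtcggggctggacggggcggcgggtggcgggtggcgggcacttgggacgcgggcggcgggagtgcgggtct
Top2a: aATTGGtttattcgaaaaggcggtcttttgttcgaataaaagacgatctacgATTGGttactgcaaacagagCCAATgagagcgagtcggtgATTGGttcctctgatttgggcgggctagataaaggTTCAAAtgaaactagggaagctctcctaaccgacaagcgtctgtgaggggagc
Bub1: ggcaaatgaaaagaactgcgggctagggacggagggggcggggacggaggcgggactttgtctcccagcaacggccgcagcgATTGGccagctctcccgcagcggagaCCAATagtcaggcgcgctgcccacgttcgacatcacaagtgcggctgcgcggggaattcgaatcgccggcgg
Prc1: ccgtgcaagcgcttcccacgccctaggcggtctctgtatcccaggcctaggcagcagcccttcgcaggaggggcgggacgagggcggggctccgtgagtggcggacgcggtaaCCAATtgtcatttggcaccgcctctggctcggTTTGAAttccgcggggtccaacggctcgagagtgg
Ect2: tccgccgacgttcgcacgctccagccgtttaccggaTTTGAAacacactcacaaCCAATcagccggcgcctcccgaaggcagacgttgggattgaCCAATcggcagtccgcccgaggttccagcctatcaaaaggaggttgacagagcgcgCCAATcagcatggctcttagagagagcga
Mcm6: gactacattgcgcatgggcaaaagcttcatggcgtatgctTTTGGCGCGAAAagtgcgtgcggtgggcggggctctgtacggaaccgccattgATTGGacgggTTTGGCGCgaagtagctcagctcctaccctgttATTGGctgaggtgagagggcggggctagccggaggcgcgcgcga
Cdc20: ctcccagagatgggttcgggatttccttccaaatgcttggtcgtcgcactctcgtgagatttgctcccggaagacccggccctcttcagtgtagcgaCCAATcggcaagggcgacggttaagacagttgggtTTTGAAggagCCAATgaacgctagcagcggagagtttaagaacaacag
Counted from the transcription start, the CHR letters of Prc1 begin at position -5 and its CCAAT at -37. In Cdc20 they begin at -18 and -53, and in Top2a a CHR form, TTCAAA on this strand, begins at -23 beside several CCAAT boxes. Mki67 has a pair of CHR matches, at -116 and -98, and the CHR letters of Rrm2 begin at the start itself. The gastrocnemius difference was 0.64 for Prc1 and -0.012 for Cdc20, which was picked for a difference near 0. Whether these letters go with the differences was not tested.

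The rest of the cell cycle machinery was read from lists of other genes of the same processes. Of 34 other replication genes measured, 27 had a gastrocnemius difference above 0 (79.4%, against 52.8% of all genes) and 0 passed. Orc6, a subunit of the origin recognition complex, Pole2, of DNA polymerase epsilon, and Dtl, which directs destruction of licensing factors, had the largest moderated statistics, with differences of 0.53, 0.49 and 0.33 (adjusted p = 0.0675, 0.135 and 0.17). Of 43 other mitosis genes, 39 were above 0 (90.7%, against 52.8% of all genes), 17 had KO arrays wholly above the controls, as did 11.0% of all genes, and 0 passed. Ncaph (condensin), Esco2 (cohesin acetylation) and Mad2l1 (spindle checkpoint) had the largest moderated statistics there, with differences of 0.39, 0.30 and 0.46 (adjusted p = 0.0698, 0.0749 and 0.0759). Medians were 0.080 for the other replication genes and 0.15 for the other mitosis genes.

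Among 16 genes listed as drivers of the cycle, such as D cyclins, their kinases and E2F factors, 12 were above 0 in gastrocnemius (75.0%, against 52.8% of all genes). The median was 0.23 and 0 passed. The list also held E2f7 and E2f8, repressors of E2F targets, so its count and median mix both roles. By the moderated statistic the first were Cdk6 at 0.59, Myc at 0.54 and E2f1 at 0.35, with adjusted p of 0.0661, 0.096 and 0.113. Among 23 measured genes listed as brakes of the cycle, 1 rose and 0 fell, with 11 above 0 (47.8%, against 52.8% of all genes). This list also held the MuvB subunits Lin9, Lin37, Lin52 and Lin54, which are not brakes alone, so its count too mixes roles. Cdkn1a was listed but not measured. Gadd45a, a growth arrest and DNA damage gene, read 10.05, 9.78 and 9.64 on the KO arrays, against 8.92, 8.59 and 8.79 on the control arrays, a log2 difference of 1.06 (SE 0.12, limma adjusted p = 0.00954). It thus rose by more than any of the 39 division genes in the same muscle, with no overlap. The antiproliferative gene Tob1 and the CDK4 and CDK6 inhibitor Cdkn2c (p18) had lower values, -0.47 and -0.36, that did not pass (adjusted p = 0.0501 and 0.0516).

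Sums of markers of some other cells of the muscle differed in the same arrays, while few single markers passed. The linear signal summed over 12 macrophage markers was 5630 to 8526 on the KO arrays, against 3811 to 4531 on the control arrays, with 12 of 12 markers above 0 and KO replicate 1 at the top. Of these only Mrc1, a mannose receptor, passed (0.77, adjusted p = 0.0139). The 10 markers of satellite cells and myoblasts summed to 2139 to 2498 on the KO arrays, against 1656 to 1818 on the control arrays, with 9 of 10 above 0. Mymk and Myog, genes of myoblast fusion and differentiation, passed (0.76 and 0.82, adjusted p = 0.0139 and 0.0395), while Pax7, the marker of satellite cells, was at 0.24 (adjusted p = 0.22). The 9 measured fibroblast markers summed to 22963 to 23899 on the KO arrays, against 18150 to 21207 on the control arrays, with 9 of 9 above 0 and 0 passing. The 8 neutrophil markers summed to 313 to 405 on the KO arrays, against 294 to 322 on the control arrays. Lymphocyte and endothelial sums overlapped, and the 10 muscle fiber markers summed to 116304 to 119758 on the KO arrays, against 125625 to 128987 on the control arrays. No marker was at 0 on any array, but neither was any probe set (lowest log2 signal 1.21), so this does not show that each marker was detected. By the same sum, the mitosis genes read 1797 to 1905 on the KO arrays, against 1367 to 1563 on the control arrays. The replication genes read 2840 to 3491 on the KO arrays, against 2749 to 2975 on the control arrays. Bright genes weigh most in a linear sum, here Pcna and Rrm1 (control means 9.76 and 9.49), and Rrm1 was lower in KO muscle. Gene by gene, 11 of the 14 replication genes were above 0, with a median of 0.22. The part of the marked cell types in the division gene values was not tested.

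**Figure D3:**
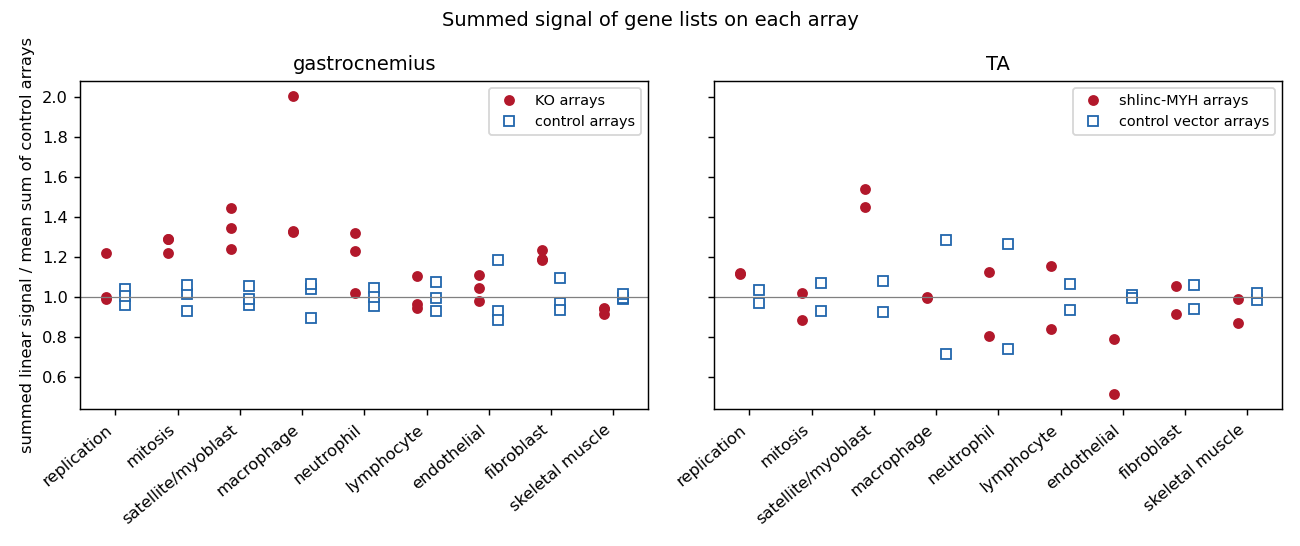
Linear signal summed over each list on each array, divided by the mean of the control arrays of that tissue (y axis), for replication and mitosis genes and markers of 7 cell types. Filled circles are KO (left) or shlinc-MYH (right) arrays and open squares their controls; mitosis sums of all 3 KO arrays lie above the gastrocnemius controls, as do the macrophage, satellite cell and fibroblast sums.

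In TA, 0 of the 39 genes passed the test (limma), as did few genes of any kind, 0.0150% or 3 of 19938. At an unadjusted p under 0.05 there were 2 division genes higher and 3 lower, where 8.65% of all genes passed in either direction. The lowest adjusted p was 0.489. The methods' t-test called 0 after Benjamini-Hochberg adjustment and 3 before it. With 2 arrays a group, the SE of a log2 difference reached 0.25 among these genes in TA, where it reached 0.16 in gastrocnemius with 3 arrays a group. The median was 0.055 for replication genes and -0.056 for mitosis genes, beside -0.025 for all genes, and 20 of the 39 genes were above 0 (51.3%, against 43.7% of all genes). The shlinc-MYH arrays lay wholly above the controls for 7 genes (all genes 16.3%) and wholly below for 5 (all genes 23.0%).

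The TA replication genes pointed both ways. Pcna, bright in TA, read 9.05 and 9.02 on the shlinc-MYH arrays, against 8.74 and 8.74 on the control vector arrays, and the arrays of a group were almost equal. Its log2 difference was 0.30 (95% interval 0.022 to 0.57, adjusted p = 0.551). Mcm7 was 5.13 and 5.12 on the shlinc-MYH arrays, against 4.91 and 4.61 on the control vector arrays, a difference of 0.37 (SE 0.14, adjusted p = 0.55). Mcm5, of the same ring, differed in the opposite direction by -0.31 (SE 0.12), with 5.23 and 5.24 on the shlinc-MYH arrays, against 5.64 and 5.45 on the control vector arrays. Both genes had groups that did not overlap. Rrm2 read 6.34 and 6.10 on the shlinc-MYH arrays, against 6.0 and 5.70 on the control vector arrays (0.37, adjusted p = 0.585), and Mcm4 5.67 and 5.46 on the shlinc-MYH arrays, against 5.45 and 5.29 on the controls, where the nearest arrays almost met. Of the 6 Mcm genes 4 were above 0. The remaining replication genes, Mcm2, Mcm3, Mcm6, Rrm1, Tyms, Cdc6, Ccne1, Ccne2 and Uhrf1, lay between -0.19 for Rrm1 and 0.27 for Mcm6, all with overlap.

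Of the 25 TA mitosis genes, 4 lay wholly below their controls, as did 23.0% of all genes. Wholly above lay 3, as did 16.3% of all genes, so neither count stands out from the array. The 4 below were Aurkb, Aurka, Cdk1 and Bub1, and none of them passed. Plk1 and Ttk differed by 0.095 and 0.029 with overlap. Aurkb read 4.75 and 4.80 on the shlinc-MYH arrays, against 5.14 and 5.20 on the control vector arrays. Its difference was -0.39 (SE 0.12, 95% interval -0.67 to -0.11, limma adjusted p = 0.489). Aurka had 5.41 and 5.31 on the shlinc-MYH arrays, against 5.60 and 5.69 on the control vector arrays (-0.29 ± 0.12, adjusted p = 0.575). Neither Aurora kinase overlapped between groups, and both lay above the receptor mark in control TA. Cdk1 gave 4.53 and 4.73 on the shlinc-MYH arrays, against 5.04 and 4.83 on the control vector arrays, a difference of -0.31 (adjusted p = 0.606). Bub1, below the receptor mark, had 3.62 and 4.0 on the shlinc-MYH arrays, against 4.03 and 4.11 on the control vector arrays (-0.26 ± 0.16). Its checkpoint partner Bub1b, as dim, lay on the other side with 4.35 and 4.67 on the shlinc-MYH arrays, against 4.32 and 3.92 on the control vector arrays (0.39 ± 0.18). Cyclin B2 (Ccnb2) read 5.59 and 5.88 on the shlinc-MYH arrays, against 5.59 and 5.49 on the control vector arrays, nearly touching. Anln, at 4.06 and 4.61 against 4.87 and 4.42, and Nuf2, at 3.85 and 3.77 against 4.30 and 3.79, overlapped between the shlinc-MYH and the control vector arrays. The other 17 mitosis genes lay between -0.26 for Top2a and 0.15 for Nusap1.

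**Figure D4:**
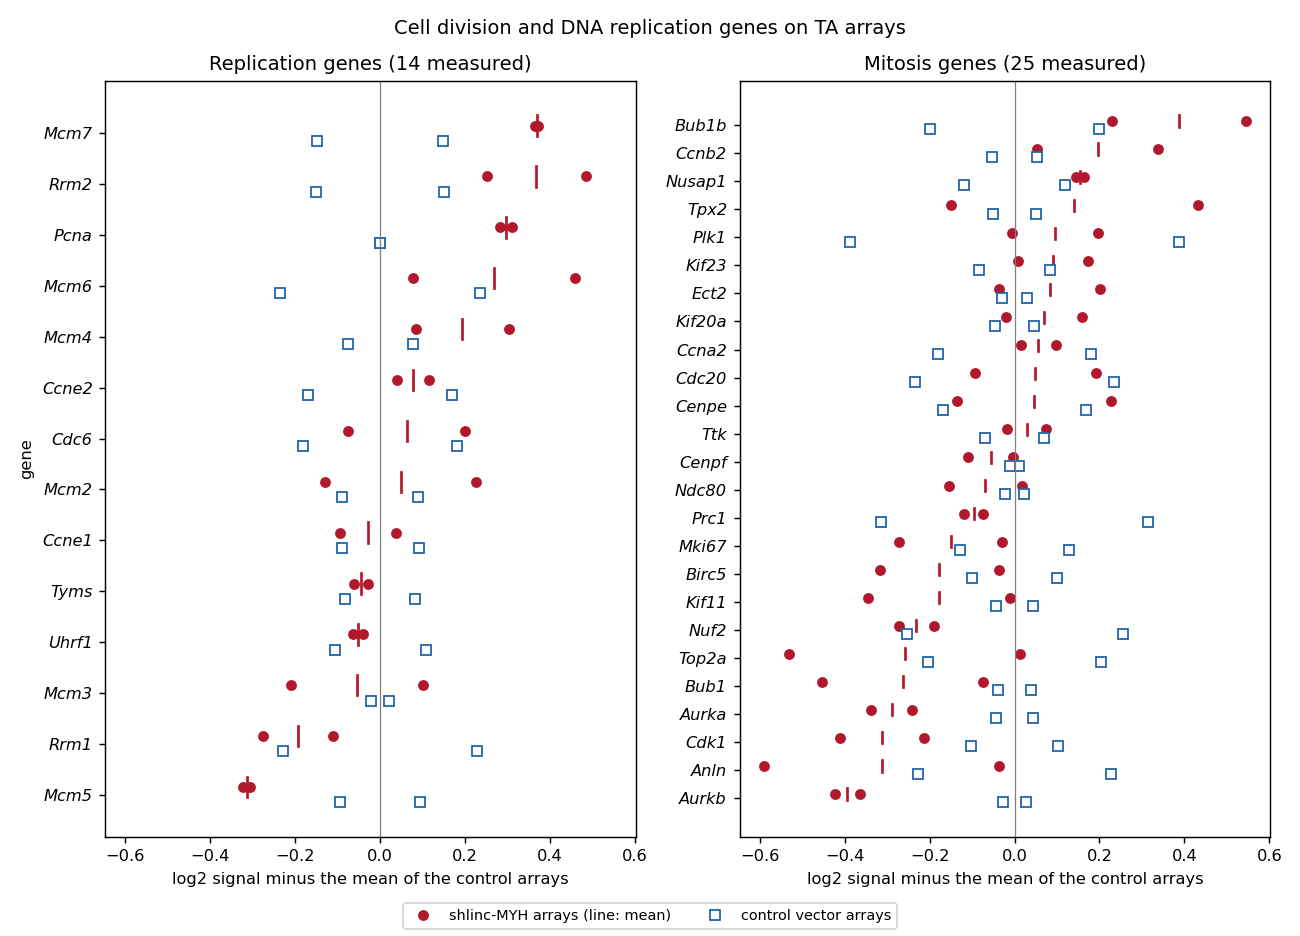
Log2 signal of each gene on each TA array minus the mean of the control vector arrays (x axis), replication genes left and mitosis genes right. Each filled circle is 1 of the 2 shlinc-MYH arrays (short line: mean) and each open square 1 of the 2 control vector arrays; no gene passed the test, and 27 of the 39 overlap between the groups.

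Array 2 of the shlinc-MYH pair was the higher one for 21 of the 25 mitosis genes, and the mitosis median moved with the arrays used, between -0.18 without control replicate 2 and 0.054 without control replicate 1. Endothelial markers were lower in the same TA arrays, with sums of 736 to 1139 on the shlinc-MYH arrays, against 1429 to 1452 on the control vector arrays and 10 of 10 markers below 0, 0 of them passing. Satellite cell and myoblast markers summed to 654 to 697 on the shlinc-MYH arrays, against 417 to 487 on the control vector arrays. Of these 10 markers 7 were above 0 and 3 below, and 0 passed. Myog, Mymk and Myod1 were the highest, at 1.60, 1.08 and 0.54, while Pax7 and Calcr were at -0.058 and -0.19. Macrophage sums of 1584 to 1590 lay inside the control range of 1140 to 2050. The part of these cell types in the division gene values was not tested. Of the 34, 43, 16 and 23 measured genes of the other lists 0 passed in TA. The genes with the largest moderated statistics in each list follow. Among the brakes, Gadd45a was at 0.74 (adjusted p = 0.306), E2f6, a repressor of E2F targets, at -0.65 and Cdkn2c at -0.41. Orc6, Gins4 and Rfc5 of the replication list were at 0.42, 0.39 and 0.35, and Cenpk, Cdca3 and Trip13 of the mitosis list at 0.73, -0.28 and 0.26. Of the driver list, E2f7, like E2f6 a repressor of E2F targets, was at -0.32, Ccnd3 at 0.24 and Mybl2 at -0.23.

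Whether the genes responded differently in TA and gastrocnemius was tested directly, as the TA difference minus the gastrocnemius difference in a fit to all 10 arrays. Of the 39 genes 0 passed (limma; 29 of all genes did, 0.145%). At an unadjusted p under 0.05 there were 12, all with the TA value the lower one (30.8%, against 12.3% of all genes in either direction). The lowest adjusted p was 0.14, for Cdk1 (-0.81 ± 0.17) and Mki67 (-0.89 ± 0.19). Bub1 at -0.93 ± 0.21, Top2a at -0.89 ± 0.22 and Aurkb at -0.78 ± 0.17 followed, all above the p threshold after adjustment. For the 7 genes that rose in gastrocnemius, the TA differences were -0.097 for Prc1, -0.26 for Top2a, -0.15 for Mki67, 0.083 for Ect2, 0.056 for Ccna2, -0.26 for Bub1 and 0.37 for Rrm2. Rrm2 was the 1 of them whose shlinc-MYH arrays also lay wholly above their controls. The comparisons differ in tissue, in manipulation, in how the RNA was obtained and perhaps in age at collection, which cannot be told apart.

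**Figure D5:**
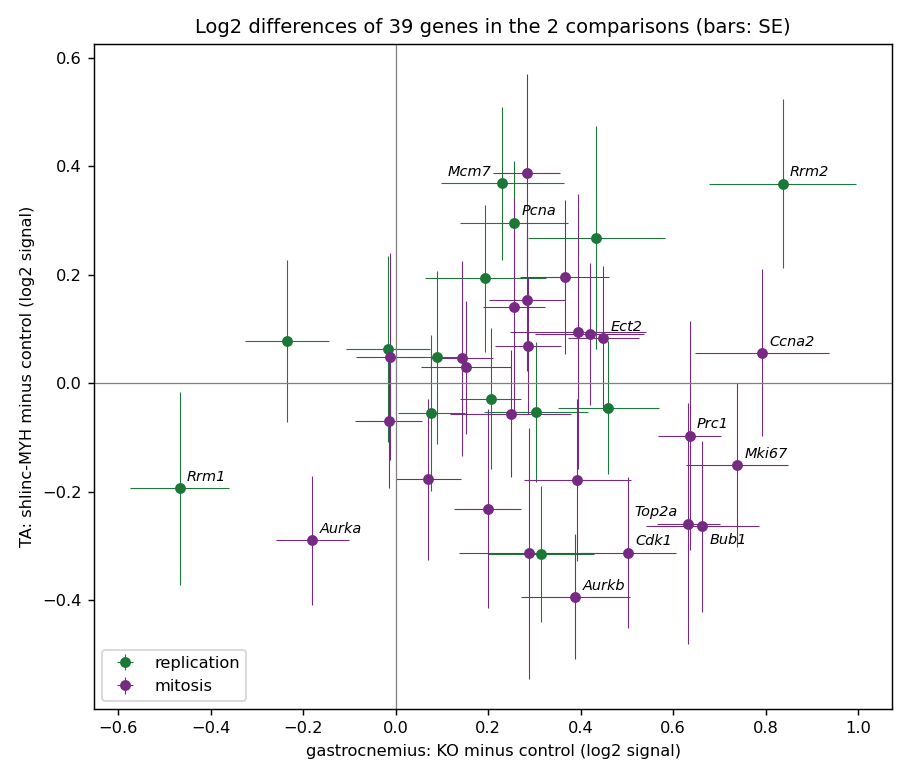
Log2 difference of each of the 39 genes in gastrocnemius (KO minus control, x axis) and in TA (shlinc-MYH minus control, y axis), with bars of 1 SE; replication and mitosis genes are coloured apart. Most genes lie right of 0 on the gastrocnemius axis (33 of 39) and spread around 0 on the TA axis (20 of 39 above it).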

How the data were processed

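Per the labels and methods, RNA was hybridised to Affymetrix Mouse Gene 1.0 ST arrays, and the authors deposited log2 signals made with RMA (in R per the methods; the submitters' processing notes also name Partek), used here without further normalization. Sources disagree on the amplification kit. The gene deleted in the KO is not reported here. The table held 35556 probe sets on 10 arrays with no missing value: 21789 had 1 gene symbol in the platform annotation, 1621 several and 12146 none, and 21698 matched RefSeq by Entrez number. Each gene was given its brightest probe set by the mean of the 10 arrays, which left 19938 genes, 999 of them with more than 1 probe set.

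TA and gastrocnemius were fitted apart in limma 3.58.1 (R 4.3.3), with lmFit and eBayes, and p-values adjusted over all genes by Benjamini-Hochberg; genes under 0.05 were called. The number of arrays, 2 or 3 a group, limits the precision. The fit was run on simulated data as a check of the code only. The planted differences were larger than most reported here, so recovery of differences of this size was not tested. Members and lists were chosen with earlier results of these data known. Values per array are given for called genes and, in each comparison, for the 5 replication and 8 mitosis genes with the largest absolute moderated statistic; of other lists, for called genes and up to 3 others. Promoters came from RefSeq (GRCm38.p6). Alternatives were other normalizations, a filter on dim genes, other handling of probe sets, other variance models, array weights, a replicate block, the methods' t-test and leaving out each array.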

Additional observations from a re-analysis of the deposited data

How the results depend on the processing

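The 7 genes that rose in gastrocnemius stayed above 0 in every alternative that measured them, and no called difference changed sign. In gastrocnemius the number of members called was 12 with array weights, 4 with a replicate block, 0 with the methods' t-test and 0 with dim genes left out, which keeps only genes above the median gene; 7 members remained there, the 1 mitosis gene being Aurka, so the mitosis median was -0.18. Leaving out 1 array gave 0 to 6 members, 0 without KO replicate 2, 2 without KO replicate 1, control replicate 1 or control replicate 2, 5 without KO replicate 3 and 6 without control replicate 3. Genes called in all, 347, became 989 with array weights, 543 with an intensity trend and robust prior, 186 with the block, 4 with the t-test, and 51 to 560 with 1 array left out. The unadjusted t-test at the usual level of 0.05 gave 2603 genes and 20 members in gastrocnemius, and 1383 genes and 3 members in TA. Median centring left out Bub1 and Ect2, quantile normalization and the block also Rrm2, and the joint fit of 10 arrays Top2a (adjusted p = 0.0596). Prc1 and Top2a missed the threshold without KO replicate 2 by little (adjusted p = 0.0502 each).

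In TA no alternative called a member. Genes called, 3, became 131 with all 10 arrays in 1 fit, 10 with median centring, 5 with the block, 0 with the t-test and 0 to 0 with 1 array left out. The TA replication median ran between -0.063 and 0.092 and the mitosis median between -0.18 and 0.054 with 1 array left out, so neither has a settled sign. For the difference between tissues, 29 genes became 16 with dim genes left out, 48 with the trend, and 6 to 100 with 1 array left out; members called were 0 to 1, the 1 being Prc1 without TA control replicate 2 (-1.05, adjusted p = 0.0249). Deviations of same-numbered arrays correlated at 0.216, -0.137 and 0.084 in gastrocnemius, where those of unlike-numbered arrays ran between -0.36 and 0.288. In TA both pairs gave 0.185, which is 1 value, as the deviations of 2 arrays in a group mirror each other. No label ties a number to an animal, so the numbers were not read as pairs. Where leaving out a TA array left an arm of 1 array, that arm gave no spread. In the TA fit the spread then came from the other TA group alone, and in the fit across tissues from the other groups. The causes of these shifts were not tested. Of the mitosis genes, 10 of 25 lie above the receptor mark in gastrocnemius, and how far dim signal limits the rest was not tested.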
